A study of Homo sapiens with 6 samples.

Results

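Matrix metalloproteinases (MMPs) and plasminogen activators are the secreted and membrane-bound proteases with which cells cut the proteins around them. The genes described here were the 10 rows of the expression table whose symbols were MMP1, MMP2, MMP7, MMP9, MMP10, MMP13, MMP14, PLAU, PLAUR and PLAT, out of 58884 genes in all. They were chosen by name, and each symbol occurred once. RNA sequencing compared KYSE70, an established line of human esophageal squamous cell carcinoma (ESCC) whose NFE2L2 gene carries an activating mutation, with NRF2null-KYSE70, in which CRISPR-Cas9 left a frameshift in exon 2 of NFE2L2, the gene of the transcription factor NRF2. Both lines were untreated and grown in the same serum-containing medium, with 3 libraries of each. NRF2null-KYSE70 was expanded from a lone clone, and the study still found smaller NRF2 isoforms in it. Group differences are therefore differences between that clone and its parental line, and the p-values measure only the spread between libraries, since nothing in the labels says that they came from separate cultures. In bulk RNA, fewer cells expressing a gene and less RNA per cell cannot be told apart.

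MMPs are zinc-dependent enzymes made as inactive zymogens. MMP1 and MMP13 are collagenases, MMP2 and MMP9 gelatinases, MMP10 a stromelysin and MMP7 matrilysin. MMP14 is anchored in the plasma membrane, where it cleaves pro-MMP2 held in place by the inhibitor TIMP2. PLAU (urokinase) and PLAT (tissue-type plasminogen activator) turn plasminogen into plasmin, and PLAUR is the receptor that holds urokinase on the cell surface. Breakdown of the matrix by these enzymes is a recognised part of invasion by squamous carcinomas.

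The libraries held between 52072801 and 63975313 reads assigned to genes. RNA of NFE2L2 itself stood at 61.4% of its parental level in NRF2null-KYSE70 (limma adjusted p = 9.37e-08), with no overlap between the lines. Of all tested genes, 28.3% were lower at a limma adjusted p under 0.05, and 63.4% did not overlap. A frameshift need not lower the RNA of its gene, so this level is no check of the labels. Of 9 markers of squamous epithelium, all were tested, and their summed normalized counts lay between 334166 and 340238 in KYSE70 and between 249242 and 259467 in NRF2null-KYSE70. In this list 5 genes were higher and 4 lower at a limma adjusted p under 0.05, beside 29.3% and 28.3% of all tested genes. The median log2 fold change of the 9 was 0.30, so the sum, in which abundant genes weigh most, went the other way. Of 8 fibroblast markers, 3 were tested (COL1A1, COL3A1 and THY1), and DCN, COL1A2 and PDGFRA had from no reads to 2 reads in any library. COL1A1 (log2 fold change -1.16) and COL3A1 (log2 fold change -4.79) passed the threshold and were lower, and THY1 was higher by 0.15 on that scale at a limma adjusted p of 0.0463. The summed level of the 8 ran from 3851 to 3973 in KYSE70 and from 3039 to 3454 in NRF2null-KYSE70. Of 7 leukocyte markers, only PTPRC was tested, at a mean of 0.351 against 43.6 normalized counts, and the sum of the list was at most 26.4 in KYSE70 and 68.5 in NRF2null-KYSE70. Of 5 endothelial markers, VWF and TEK were tested, PECAM1, CDH5 and KDR had at most 1 read in any library, and the sum ran from 137 to 159 in KYSE70 and from 293 to 499.0 in NRF2null-KYSE70. PTPRC (log2 fold change 5.13), VWF and TEK all passed the threshold and were higher, as were 7.23% of all tested genes. PTPRC entered the test only through its level in NRF2null-KYSE70. PTPRC, VWF and TEK were named after their values were seen, and what part these markers had in the values below was not tested.

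Sequences just upstream of the gene starts are shown first, because PLAUR, which rose, and MMP7, which had almost no reads, held matches to the same motifs. RefSeq promoter sequences (GRCh38.p14) were at hand for 5 of the 10 genes, MMP7, MMP10, MMP14, PLAU (with 2 starts) and PLAUR. In each, the 250 bases before the RefSeq start were searched on both strands for 5 motifs. By the gene positions given below, from another annotation, the MMP7 and MMP14 windows reach into the gene. Those of PLAU and PLAUR lie inside it, and those of PLAU are not printed. The AP-1 site was TGAGTCA, bound by FOS and JUN proteins. The ETS site was CAGGAAG, bound by ETS factors. The TATA box, which places the start of transcription, was TATAAA. The GC box, a site of SP1, was GGGCGG. The antioxidant response element, the site of NRF2, was TGACNNNGC. In the sequences below, written 5′ to 3′ on the strand of the gene, capitals mark matches, none of which overlapped. The windows of MMP7, MMP10 and MMP14 are given whole. For PLAUR only the 30 bases around each match are given, since its window lies in an untranslated exon of a longer annotated transcript.
PLAUR, AP-1 match, chr19:43670337-43670366, minus strand: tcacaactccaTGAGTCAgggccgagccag
PLAUR, ETS match, chr19:43670170-43670199, minus strand: ccacaaaactgcctcCTTCCTGaggccaga
MMP7, chr11:102530748-102530997, minus strand: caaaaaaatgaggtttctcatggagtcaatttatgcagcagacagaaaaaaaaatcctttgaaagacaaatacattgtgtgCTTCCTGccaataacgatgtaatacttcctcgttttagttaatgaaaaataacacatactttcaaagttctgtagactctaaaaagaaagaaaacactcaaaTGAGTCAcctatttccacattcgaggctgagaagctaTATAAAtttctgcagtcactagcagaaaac
MMP10, chr11:102780629-102780878, minus strand: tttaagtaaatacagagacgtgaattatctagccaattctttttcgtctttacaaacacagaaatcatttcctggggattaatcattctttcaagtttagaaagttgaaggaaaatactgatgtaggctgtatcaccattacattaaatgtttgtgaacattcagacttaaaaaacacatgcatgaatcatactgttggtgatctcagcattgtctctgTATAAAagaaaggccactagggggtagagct
MMP14, chr14:22836335-22836584, plus strand: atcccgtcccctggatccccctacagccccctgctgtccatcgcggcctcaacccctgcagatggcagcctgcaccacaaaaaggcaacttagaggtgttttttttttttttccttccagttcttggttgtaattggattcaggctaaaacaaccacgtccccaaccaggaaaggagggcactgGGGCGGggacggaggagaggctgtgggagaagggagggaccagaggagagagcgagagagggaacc

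An AP-1 match was found in PLAUR, from 186 to 180 bases before its start, and in MMP7, from 67 to 61 bases before its start. Among 35116 promoter windows of the same length, 4.20% held this motif. The same pair of genes held an ETS match, which was found in 10.5% of all windows, at 15 to 9 bases before the start in PLAUR and at 169 to 163 in MMP7. A TATA box stood 31 to 26 bases before the start of MMP10 and 30 to 25 before that of MMP7 (10.7% of all windows). A GC box was found in MMP14 and at 3 places in 1 of the PLAU windows (42.6% of all windows). The only antioxidant response element match was in the other PLAU window, 168 to 160 bases before that start, and 10.9% of all windows held such a match. These letters describe the windows and were not tested as sites.

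Of the 10 genes, 7 were expressed enough to be tested, with a mean of at least 10 normalized counts over the 6 libraries. MMP1, MMP7 and MMP9 were not. A gene passed the threshold when its limma adjusted p over all 15994 tested genes was under 0.05 and its log2 fold change was 1 or more in size. The cut-offs were taken from the methods of the study. MMP2, PLAU and PLAUR passed it, all of them higher in NRF2null-KYSE70. That is 3 of the 7 tested, where 14.7% of all tested genes passed, 7.23% of all being higher and 7.43% lower in NRF2null-KYSE70. By the adjusted p alone MMP14 and PLAT were also higher, which made 5 of 7 beside 57.6% of all tested genes, 29.3% of all being higher and 28.3% lower. There was no overlap between the lines for 6 of the 7, beside 63.4% of all tested genes. The median log2 fold change of the 7 was 1.11 and that of all tested genes -0.01. The 7 include PLAU and MMP13, whose low means came mostly from NRF2null-KYSE70, so the counts over those tested are no measure of the 10.

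**Figure D1:**
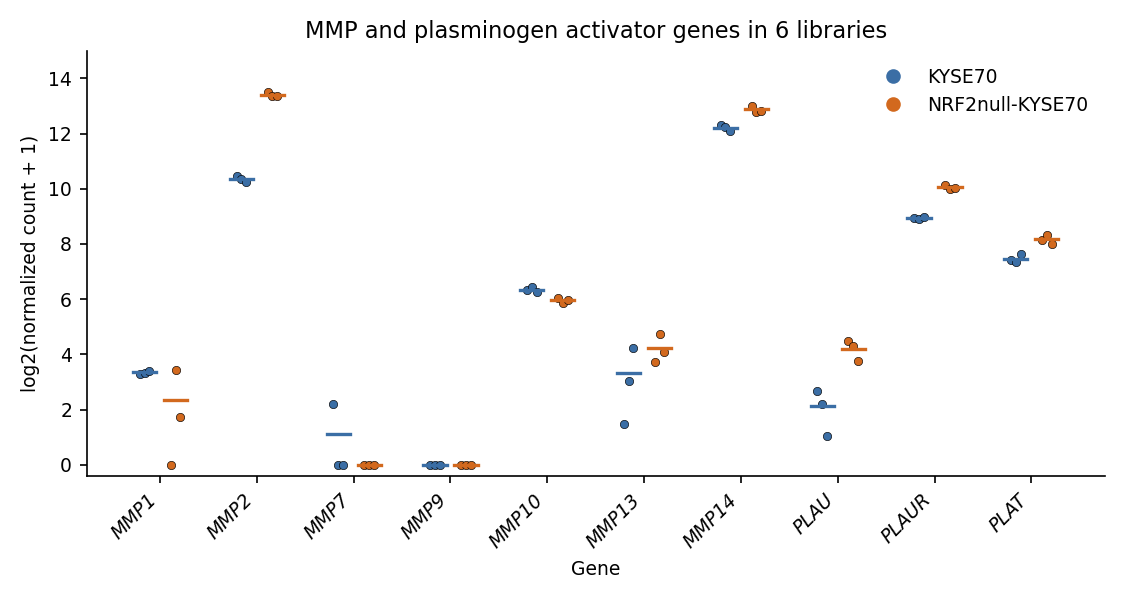
Normalized counts of the 10 genes on the log2(normalized count + 1) scale (y axis) by gene (x axis), with 1 point per library and a line at the group mean, 3 libraries each for KYSE70 (blue) and NRF2null-KYSE70 (orange). MMP2 shows the widest separation of the lines, MMP14 and PLAUR are higher in NRF2null-KYSE70 with no overlap, and MMP9 is at 0 in every library.

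MMP2, the gelatinase that degrades basement membrane collagen (ENSG00000087245, chromosome 16 from 55389700 to 55506691, hg38), changed most. Its normalized counts, read counts divided by the size factor of the library, were 1426, 1317 and 1227 in the KYSE70 libraries and 11645, 10410.0 and 10489 in those of NRF2null-KYSE70. Every NRF2null-KYSE70 library stood far above every KYSE70 library, and the spread within each line was small beside the gap. The means were 1324 ± 99.7 and 10848 ± 691 (SD, n = 3 per line), an 8.20-fold rise (log2 fold change 3.03, SE 0.066, limma adjusted p = 2.8e-12). Of all tested genes, 1.23% had a larger log2 fold change. Over the 16 alternatives its log2 fold change stayed between 2.96 and 3.09.

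MMP14, the membrane-type MMP that activates pro-MMP2 (ENSG00000157227, chromosome 14 from 22836560 to 22849041), rose less from a higher level. It had 5061, 4783 and 4337 normalized counts in KYSE70 and 8208, 7106 and 7176 in NRF2null-KYSE70, and the groups did not overlap. This was a 1.59-fold rise (log2 fold change 0.66, SE 0.069, limma adjusted p = 3.57e-06), below the 2-fold that the threshold asks for.

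The urokinase receptor gene PLAUR (ENSG00000011422, chromosome 19 from 43646095 to 43670547) had 487, 476 and 499.8 normalized counts in KYSE70 and 1112, 1018 and 1039 in NRF2null-KYSE70. All NRF2null-KYSE70 libraries were higher, by 2.17-fold on the means (log2 fold change 1.11, SE 0.082, limma adjusted p = 1.47e-07). Its ligand PLAU (ENSG00000122861, chromosome 10 from 73909177 to 73917496) was scarcely expressed, with 6, 4 and 1 reads in the KYSE70 libraries and 21, 19 and 11 in those of NRF2null-KYSE70. Urokinase RNA thus passed the test (log2 fold change 2.21, SE 0.646, limma adjusted p = 0.0106) on 11 reads against 51, and the size of the change ranged from 1.45 with a pseudocount of 5 to 2.59 with one of 0.1. PLAU shares 915 exon bases with C10orf55 on the other strand, which had means of 2.11 and 2.28 normalized counts, and whether the counting used strand was not given in the sources used here.

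PLAT, the other activator (ENSG00000104368, chromosome 8 from 42174718 to 42207709), had 169.9, 161 and 197 normalized counts in KYSE70 and 279, 324 and 257 in NRF2null-KYSE70. The groups did not overlap, and the rise was 1.63-fold (log2 fold change 0.70, SE 0.148, limma adjusted p = 0.00135). The RNA of the receptor and of both activators was thus higher in NRF2null-KYSE70, though PLAU entered the test only through its level in that line. Per kilobase of exon PLAT and PLAUR stood well above PLAU in each library.

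The remaining genes belonged to the MMP cluster on 11q22 or had almost no reads. MMP10 (ENSG00000166670, chromosome 11 from 102770502 to 102780628) had 79.2, 85.3 and 75.9 normalized counts in KYSE70 and 64.9, 57.9 and 61.6 in NRF2null-KYSE70. The groups did not overlap, but the difference did not pass the test (log2 fold change -0.38, SE 0.218, limma adjusted p = 0.159). With limma without the mean-variance trend the adjusted p was 0.00817, while edgeR gave 0.191 and DESeq2 0.21. MMP13 (ENSG00000137745, chromosome 11 from 102942995 to 102955732) held 2, 8 and 17 reads in the KYSE70 libraries and 12, 26 and 14 in the others, so the lines overlapped. Its log2 fold change was 1.26 with an SE of 0.691 (limma adjusted p = 0.139). It became 1.92 with an adjusted p of 0.0343 without KYSE70 library 3, and 0.53 with an adjusted p of 0.468 without KYSE70 library 1.

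MMP1, the main interstitial collagenase (ENSG00000196611, chromosome 11 from 102789401 to 102798160), held 10, 10 and 9 reads in the KYSE70 libraries and 0, 10 and 2 in the others. In a fit without the filter on low values its limma adjusted p was 0.162. A pseudogene on the other strand, WTAPP1, shares 223 exon bases with it and had means of 28.7 and 30.8 normalized counts. MMP7 (ENSG00000137673, chromosome 11 from 102520508 to 102530750) had 4 reads in KYSE70 library 1 and none in the other libraries. MMP9 (ENSG00000100985, chromosome 20 from 46008908 to 46016561) had no read in any library, which allows up to 3 reads, or between 2.67 and 3.42 normalized counts, in a library. This limit covers counting error only.

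The cluster on 11q22 holds 9 MMP genes in a row, from MMP7 to MMP13, and was set beside 9 neighbouring genes fixed as a list. MMP10 was the highest of the 9 MMP genes in either line, at 45.5 and 34.9 normalized counts per kb of exon, and MMP3 had no read in any library. Of the neighbours, 7 were tested, and CFAP300 and DDI1 had at most 1 read in any library. Per kb of exon the 7 ran from 20.8 to 13599 normalized counts in KYSE70 and from 64.6 to 15416 in the other line. By the adjusted p of limma, 3 of these neighbours were higher and 3 lower in NRF2null-KYSE70, beside 29.3% and 28.3% of all tested genes. Their median log2 fold change was -0.05. Among them only BIRC3, an inhibitor of apoptosis, passed the threshold (log2 fold change 1.66, SE 0.171, limma adjusted p = 3.33e-06), as did 7.23% of all tested genes upward. Per kb of exon BIRC3, at 20.8 in KYSE70, lay below MMP10, and the other 6 tested neighbours lay above every gene of the cluster in both lines.

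**Figure D2:**
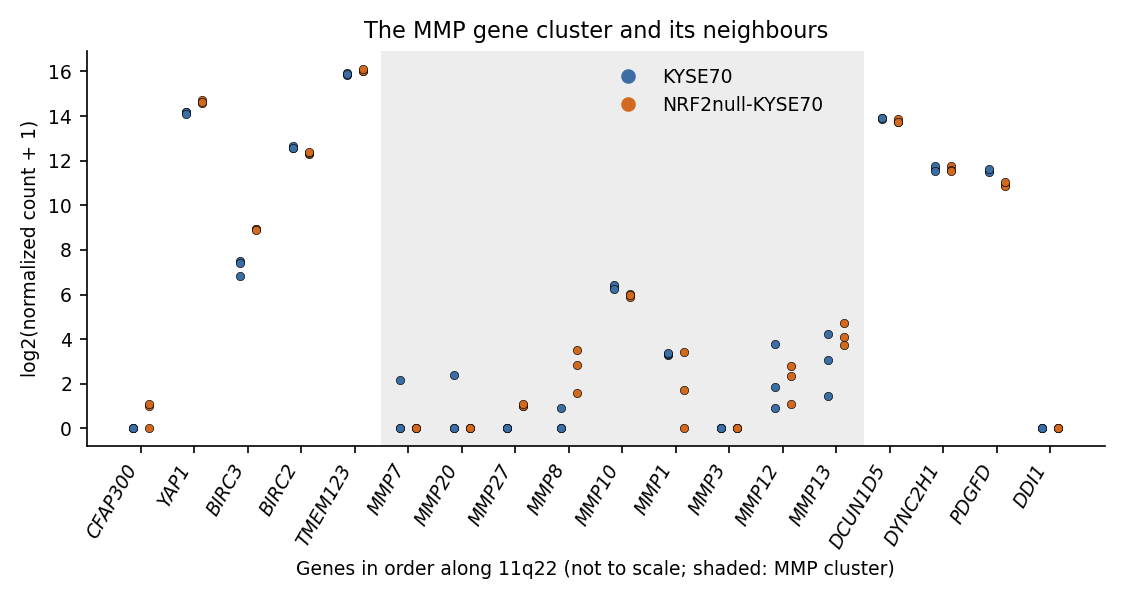
Expression along 11q22, with genes in chromosomal order on the x axis (not to scale) and log2(normalized count + 1) on the y axis, 1 point per library for KYSE70 (blue) and NRF2null-KYSE70 (orange). Inside the shaded MMP cluster MMP10 is highest, at means of 80.1 and 61.5 normalized counts, and on this scale, which is not per length, the 7 tested neighbours lie above it in both lines while CFAP300 and DDI1 lie near 0.

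The 20 nearest tested protein-coding genes, without the 10 genes themselves, were then examined around each gene. The median log2 fold change of these neighbours was -0.12 around MMP2, over 1.80 Mb on either side, with 9 of 20 above 0. It was -0.18 around MMP14, 0.30 around PLAUR, -0.11 around PLAT, 0.04 around PLAU and -0.06 around MMP10. The median was highest around PLAUR, where 13 of the 20 neighbours lay above 0, over 0.418 Mb on either side. What part this had in the rise of PLAUR was not tested.

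The rest of the MMP family was compared next. Of 16 further MMP genes, 6 were tested and 2 passed the threshold, MMP19 and MMP28, both higher in NRF2null-KYSE70, as were 7.23% of all tested genes, and both at low levels. MMP19 entered the test only through its level in NRF2null-KYSE70, so the count of 2 of 6 is no measure of the 16. MMP19 went from 4.45, 1.81 and 2.11 to 25.4, 13.7 and 22.8 normalized counts (log2 fold change 2.53, SE 0.605, limma adjusted p = 0.00305). MMP28, also known as epilysin, went from 24.9, 22.7 and 13.7 to 56.8, 37.3 and 42.2 (log2 fold change 1.14, SE 0.36, limma adjusted p = 0.0164). The call of MMP28 was lost without KYSE70 library 3 (limma adjusted p = 0.0559) and without NRF2null-KYSE70 library 1 (limma adjusted p = 0.0711), and also without the filter on low values (limma adjusted p = 0.0531) and with a pseudocount of 5, where its log2 fold change was 0.998. The other 4 did not pass, and the median log2 fold change of the 6 was 0.02. The summed level of the 16 genes ran from 3684 to 4032 normalized counts in KYSE70 and from 3653 to 4287 in NRF2null-KYSE70, so the ranges overlapped. By comparison, the sum over the 10 genes ran from 6366 to 7244 and from 18970 to 21342, and most of it was MMP2 and MMP14.

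Inhibitors of MMPs were compared next. The 4 tested genes of a list of 6 were higher at a limma adjusted p under 0.05, as were 29.3% of all tested genes. TIMP3 and TIMP2 passed the threshold, as did 7.23% of all upward, while TIMP1 and RECK, a membrane-anchored inhibitor with a log2 fold change of 0.46, did not reach the fold it asks for. TIMP3, which binds to the extracellular matrix, had 2089, 1896 and 1786 normalized counts in KYSE70 and 19788, 17585 and 16343 in NRF2null-KYSE70. With no overlap and a 9.31-fold rise (log2 fold change 3.22, SE 0.074, limma adjusted p = 4e-12), its change was of the size of that of MMP2. TIMP2, the inhibitor that also bridges MMP14 and pro-MMP2, had 1542, 1485 and 1481 normalized counts in KYSE70 and 3469.9, 2999.6 and 3269.5 in NRF2null-KYSE70. This was a 2.16-fold rise (log2 fold change 1.11, SE 0.065, limma adjusted p = 1.76e-08). TIMP1 differed little, from 3616, 3662 and 3553 to 4124, 4214 and 4134 normalized counts, and its groups did not overlap (log2 fold change 0.20, SE 0.048, limma adjusted p = 0.00277). TIMP4 had no read in any library. The median neighbour log2 fold change was 0.07 around TIMP3 and 0.21 around TIMP2.

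Of 5 inhibitors of plasminogen activators and plasmin, 1 was tested. SERPINE2 (protease nexin-1) fell from 3048, 2908 and 2826 to 2316, 2327 and 2436 normalized counts (log2 fold change -0.31, SE 0.056, limma adjusted p = 0.000387). SERPINB2 (PAI-2) was not tested. It had 4 reads in all in KYSE70 and 39 in NRF2null-KYSE70, of which 32 came from library 3.

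**Figure D3:**
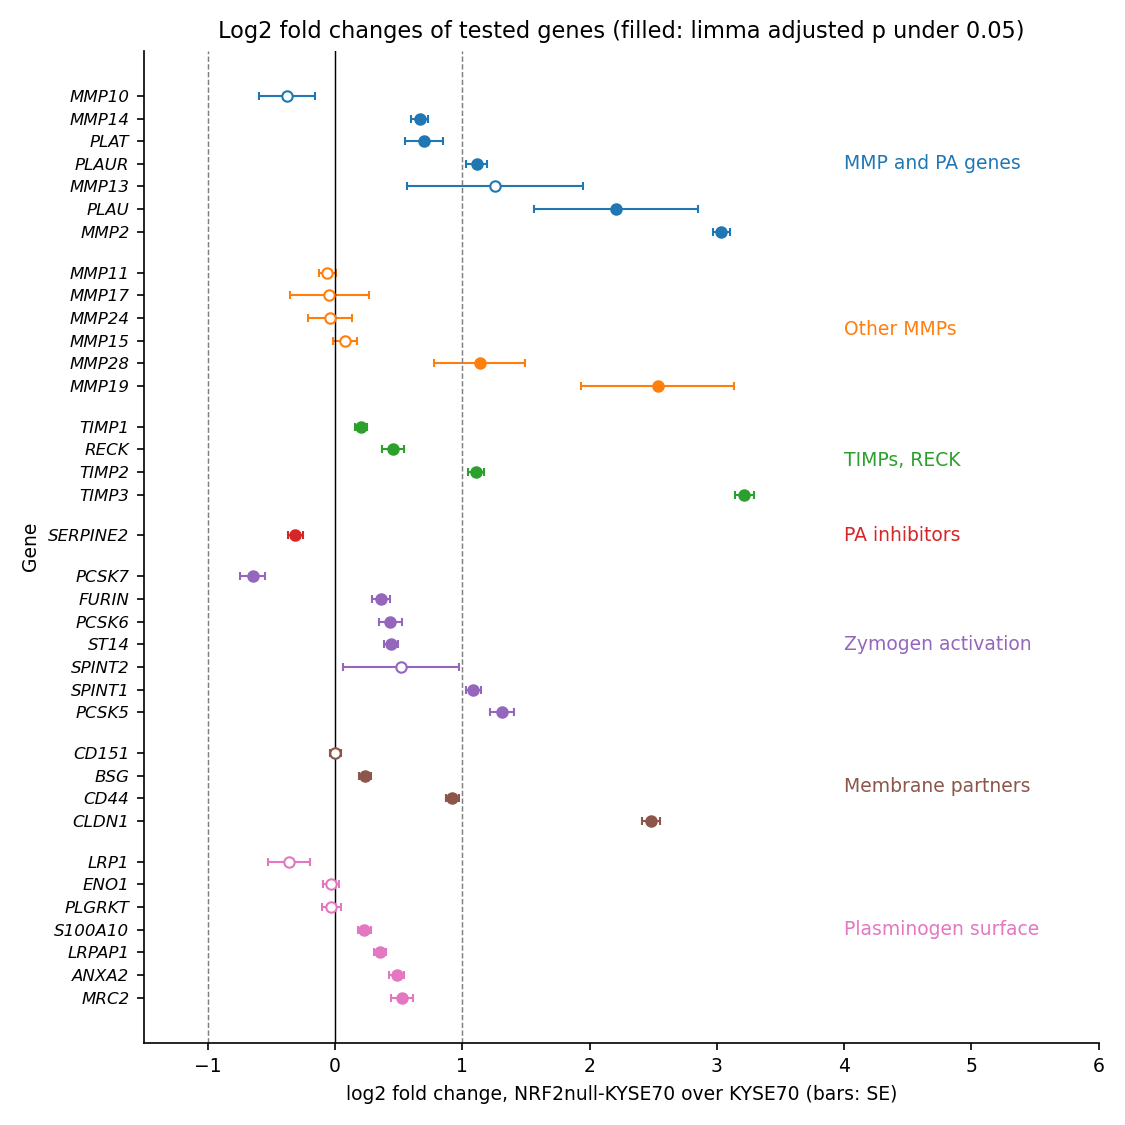
Log2 fold changes of NRF2null-KYSE70 over KYSE70 (x axis, bars are SE, 3 libraries per line) for tested genes of 7 lists (y axis, MMP and PA stand for the 10 genes described). Filled points had a limma adjusted p under 0.05 and dashed lines mark the cut-off at an absolute log2 fold change of 1. MMP2 at 3.03 and TIMP3 at 3.22 lie furthest to the right, while MMP10 at -0.38 is open.

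Levels were compared between genes per kilobase of exon, from the union of annotated exons. In KYSE70 the order of mean level, in normalized counts per kb, was TIMP1 (2497), MMP14 (1023), TIMP3 (418), SERPINE2 (327), MMP2 (281), TIMP2 (242), PLAUR (109), MMP10 (45.5), PLAT (22.7), MMP1 (3.34), MMP13 (3.17) and PLAU (1.13). Neighbours in this order whose library ranges overlapped were MMP1 and MMP13, and MMP13 and PLAU. In NRF2null-KYSE70 the order was TIMP3 (3895), TIMP1 (2875), MMP2 (2305), MMP14 (1622), TIMP2 (523), SERPINE2 (263), PLAUR (237), PLAT (36.9), MMP10 (34.9), MMP13 (6.31), PLAU (5.93) and MMP1 (1.47). The ranges overlapped for PLAT and MMP10 and for MMP13 and PLAU. RECK was left out of these orders and stood at 108 per kb in KYSE70 and 148 in NRF2null-KYSE70. In KYSE70 its range of 102 to 115 overlapped that of PLAUR, 107 to 112.
MMP2 thus stood below MMP14 in every KYSE70 library, with 261 to 303 against 938 to 1095 per kb, and above it in every NRF2null-KYSE70 library, with 2212 to 2475 against 1537 to 1775 per kb. TIMP3 likewise went from below TIMP1 to above it. Union exon lengths count rarely used exons, so the levels per kb are approximate.

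**Figure D4:**
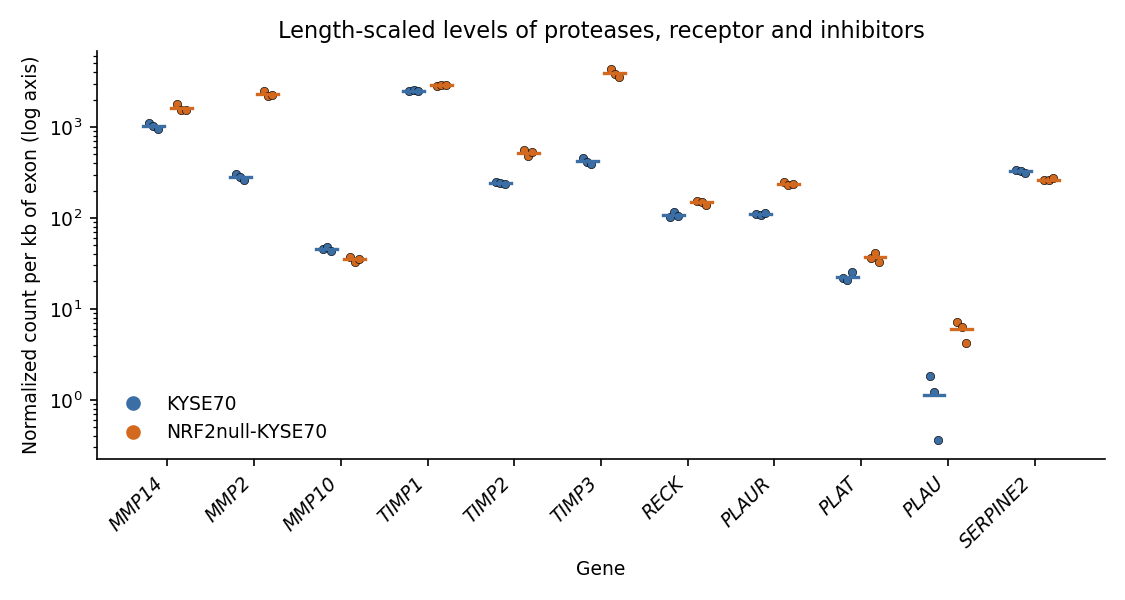
Normalized counts per kb of exon (y axis, log axis) of proteases, the urokinase receptor and inhibitors (x axis), 1 point per library with lines at the means of 3 libraries, KYSE70 in blue and NRF2null-KYSE70 in orange. MMP2 moves from 281 to 2305 and TIMP3 from 418 to 3895, and of the genes drawn PLAU is lowest in both lines, at 1.13 and 5.93.

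Genes that act on the zymogens or hold the proteases at the membrane were compared as lists. Of 8 genes for proteases that activate pro-MMPs or pro-urokinase and for their inhibitors, 7 were tested, and 5 were higher and 1 lower at a limma adjusted p under 0.05 (median log2 fold change 0.44, with the shares of all tested genes as above, 29.3% and 28.3%). PCSK5, a proprotein convertase, rose 2.49-fold (log2 fold change 1.32, SE 0.095, limma adjusted p = 1.23e-07). SPINT1, an inhibitor of the membrane protease matriptase, rose 2.13-fold (log2 fold change 1.09, SE 0.059, limma adjusted p = 8.91e-09). These 2 passed the threshold, as did 7.23% of all tested genes upward. The list thus held a rising convertase and a rising protease inhibitor. Of 5 membrane partners of MMPs, 4 were tested and 3 were higher by the same rule, with a median log2 fold change of 0.58. Only CLDN1, a tight junction protein, passed the threshold, as did 7.23% of all tested genes upward. CLDN1 stood at 942 ± 81.8 and 5262 ± 349.9 (mean normalized count ± SD of 3 libraries, log2 fold change 2.48, limma adjusted p = 4.14e-11).

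Plasminogen itself had no read in any library (PLG), nor had VTN, which encodes vitronectin. Of 9 genes of plasminogen, its surface receptors and the receptors that clear urokinase, 7 were tested. Of these, 4 rose with an adjusted p below 0.05 in limma, and 3 did not pass. Among all tested genes, 29.3% rose by the same rule and 28.3% fell. The log2 fold changes of the 7 ran from -0.36 to 0.52, with a median of 0.23, which is short of the threshold. The summed level of the list ran from 376321 to 403051 normalized counts in KYSE70 and from 413629 to 458300 in NRF2null-KYSE70. Most of this sum was ENO1, at means of 231636 and 226859, and ANXA2, at 120031 and 168129.

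ADAM and ADAMTS proteases, relatives of the MMPs, went both ways. Of 13 genes, 8 were tested, with a median log2 fold change of -0.03. At a limma adjusted p under 0.05, 4 were higher and 3 lower, beside 29.3% and 28.3% of all tested genes. Past the threshold were 2 higher and 2 lower, beside 7.23% and 7.43% of all. One of the lower genes, ADAMTS9, entered the test only through its level in KYSE70, so these counts are no measure of the 13. ADAM10, a sheddase of membrane proteins, rose from 8040 ± 359.5 to 19090 ± 1490 (mean normalized count ± SD of 3 libraries, log2 fold change 1.25, limma adjusted p = 2.65e-09), and ADAM19 rose from 24.2 ± 4.66 to 113 ± 18.5 (log2 fold change 2.19, limma adjusted p = 1.66e-05). ADAMTS1, a protease that cleaves proteoglycans, fell from 795 ± 91.4 to 158 ± 32.7 (log2 fold change -2.34, limma adjusted p = 5.76e-08). ADAMTS9 fell from 50.7, 49.9 and 63.3 to 6.09, 0 and 0 normalized counts, and its fitted log2 fold change of -4.85 rests on 6 reads in NRF2null-KYSE70 and ranged from -7.10 to -3.19 over the alternatives.

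Factors known to act on promoters of MMP, urokinase and urokinase receptor genes were the last list. All 14 genes for AP-1 factors, ETS factors and RUNX2 were tested, with a median log2 fold change of 0.75. At a limma adjusted p under 0.05, 11 were higher and 2 lower, beside 29.3% and 28.3% of all tested genes. Past the threshold were 5, all of them higher, beside 7.23% of all tested genes upward. The 4 with the largest log2 fold changes are described. FOSL1, an AP-1 subunit, rose 4.95-fold, from 1247 ± 41.1 to 6165 ± 543 (mean normalized count ± SD of 3 libraries, log2 fold change 2.30, SE 0.068, limma adjusted p = 3.96e-11). JUN, which pairs with FOS proteins to form AP-1, rose 4.46-fold (log2 fold change 2.15, SE 0.058, limma adjusted p = 1.83e-11). ETV5, of the PEA3 group of ETS factors, rose 4.52-fold (log2 fold change 2.17, SE 0.046, limma adjusted p = 2.28e-12), and RUNX2, a factor known for its action on MMP13, rose 2.99-fold (log2 fold change 1.58, SE 0.13, limma adjusted p = 4.19e-07). The 2 that fell, named after their values were seen, were FOSL2, an AP-1 subunit that went from 5910 ± 172 to 4215 ± 309.9 normalized counts (log2 fold change -0.49, SE 0.059, limma adjusted p = 1.37e-05), and ELF3, an epithelial ETS factor (log2 fold change -0.83, SE 0.103, limma adjusted p = 1.87e-05). FOSL2, at 825 normalized counts per kb of exon, stood above FOSL1 in KYSE70, and JUND did not pass the test (log2 fold change -0.05, limma adjusted p = 0.559). PLAUR, whose window above holds AP-1 and ETS matches, was higher in NRF2null-KYSE70, and MMP7, whose window holds both as well, had no read there. What part these factors had in the values of the 10 genes was not tested.

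**Figure D5:**
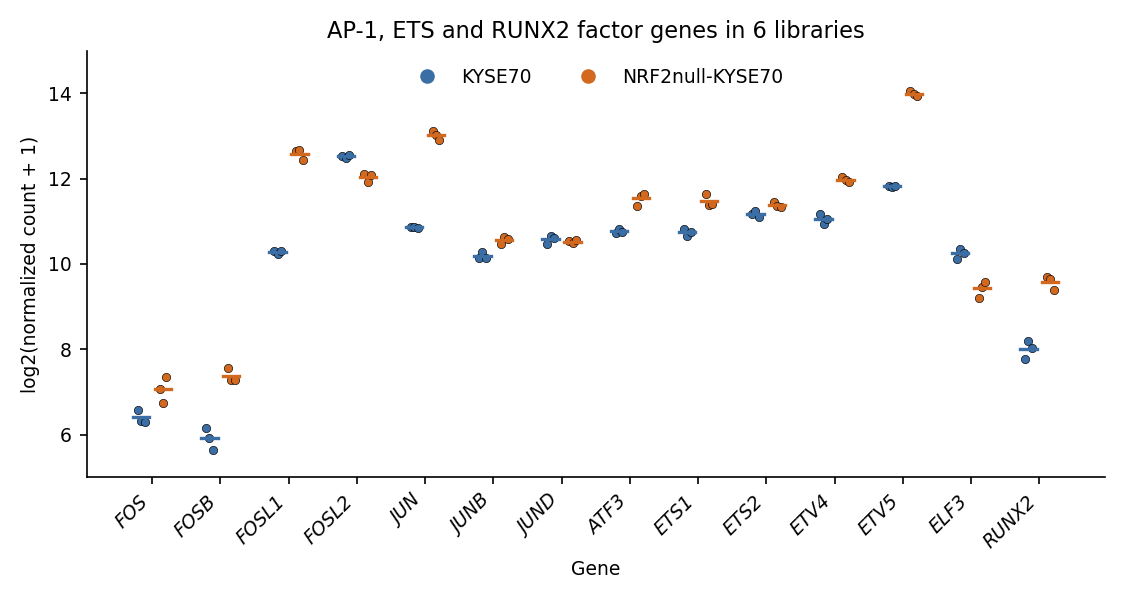
Expression of 14 genes for AP-1 factors, ETS factors and RUNX2 (x axis) as log2(normalized count + 1) (y axis, starting at 5), 1 point per library with lines at the means of 3 libraries, KYSE70 in blue and NRF2null-KYSE70 in orange. FOSL1, JUN and ETV5 show the largest separations, with log2 fold changes of 2.30, 2.15 and 2.17.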

How the data were processed

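Reads that passed quality filters were aligned by the authors with STAR (version 2.6.90c) to hg38 and counted with featureCounts (version 1.5.1). Their methods name a RefSeq annotation, while the table lists Ensembl identifiers. As deposited, each value was a signal, a normalized count, meaning the reads of a gene over the size factor that DESeq2 gave its library. Strand and multiple alignments in the counting were not given in the sources used here. Columns carried the line without a replicate number, so libraries are numbered by their order in the table. Positions came from GENCODE v44.

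Whole reads were recovered by dividing each library by the value of 1 read (0.889 to 1.14). Within a tolerance of 0.01 of a read, 100% of values came out whole. Normalized counts were tested two-sided with limma 3.58.1 in R 4.3.3 (lmFit, eBayes with trend) on log2(normalized count + 1), with the line as the only term and Benjamini-Hochberg adjustment over 15994 genes with a mean of at least 10. Log2 fold changes of low genes depend on this scale and can lie above or below those of count models. That of PLAU was 2.21 here and 2.31 with edgeR, and that of MMP13 was 1.26 and 1.03. Values given as N-fold are ratios of group means. The code was tested on simulated data.

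As alternatives, the pseudocount was set to 0.1 or 5 and the filter was dropped or raised to 50. Scaling was by quantiles, TMM or totals, the trend was left out of limma, and edgeR 4.0.16 and DESeq2 1.42.0 were run on whole reads. Each library was also omitted once, and the fold cut-off was dropped. The 10 genes, the motifs and the lists were chosen with earlier results of these data known. Named genes were the 10, up to 4 past the threshold from each further list, the TIMPs, SERPINE2 and SERPINB2, and 1 further gene is not reported here. FOSL2, ELF3, JUND, RECK, ENO1, ANXA2, marker genes, overlapping genes and genes without reads named besides these were chosen after their values were seen.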

Additional observations from a re-analysis of the deposited data

How the results depend on the processing

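For MMP2, MMP14, PLAU, PLAUR and PLAT, direction and side of the threshold, adjusted p and fold together, held under every alternative that tested them with that threshold. Of 395 values of 25 named genes under the alternatives, 389 kept both, 5 lost the call (MMP28 under 4 alternatives and SPINT1), 1 gained it (MMP13) and none turned its direction. SPINT1 lost it under quantile normalization, at a log2 fold change of 0.98. With the adjusted p alone, 9206 of all tested genes, 5 of the 10 genes and 5 inhibitors passed. A filter at a mean of 50 left 1511 genes past the threshold among 13004 tested and removed PLAU and MMP13. With that filter limma called 0 of the 4 other MMPs still tested, and 0 had an unadjusted p under 0.05, since it removed MMP19 and MMP28. On the usual filter limma, edgeR and DESeq2 each called 2. A pseudocount of 5 left 1 other MMP, and leaving out each library once left 1 or 2 of them. Libraries could not be matched across lines by replicate number. No paired analysis was possible because the column names hold no such number. Depth limited MMP1, MMP7, MMP9, MMP13 and PLAU, for which a few reads set the values.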
